A study of Mus musculus with 10 samples.

Results

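Of the 85680 regions formed by merging the peaks of 10 Omni-ATAC-seq libraries of mouse colon organoids, 1010 were called in each of the 3 AHR KO libraries grown in WENR and in neither of the 2 WT libraries grown in it. These AHR KO-only regions were chosen by the WENR peak calls themselves, so their presence in AHR KO and absence in WT in that medium is their definition and is given here without a test. They made up 1.34% of the 75585 regions called in at least 1 WENR library, and 650 regions met the opposite rule, with a peak in both WT and in no AHR KO library in WENR. The d4 ENR libraries took no part in the choice. ENR is a medium with EGF, Noggin and R-spondin1, to which WENR adds Wnt3a-conditioned medium, inhibitors of p38 kinase and of the TGF-beta receptor ALK5, and nicotinamide. The d4 ENR organoids were moved from WENR to ENR for 4 days, so that the loss of Wnt3a and that of the other additives cannot be told apart. Both were measured in WT organoids, with 2 libraries in WENR and 3 in d4 ENR, and in AHR KO organoids, with 3 and 2 libraries. All organoids came from colonic crypts grown in Matrigel, and the AHR KO line carries floxed Ahr alleles deleted in epithelial cells by a Cre driven from the Villin promoter. The labels do not say which libraries share a mouse or organoid line, so the spread between libraries may be partly technical. Each library was made from 50000 sorted live cells.

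ATAC-seq uses a transposase that inserts sequencing adapters into open chromatin, and peaks mark promoters, enhancers and other accessible elements. AHR is a ligand-activated transcription factor of the bHLH-PAS family that pairs with ARNT on DNA and senses dietary, microbial and environmental compounds in the gut. Wnt3a keeps colon organoids in a stem cell-rich state, and its withdrawal lets the cells differentiate. AP-1 dimers of Fos and Jun proteins and TEAD factors with their coactivators YAP and TAZ bind many enhancers of growing and regenerating epithelium, whereas HNF4 and CDX2 act at enhancers of the mature intestine.

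The sequences below are the central 300 bp of regions chosen by rank, taken as their lowest percentile over a set of lists. Some ranked highest over the AHR KO WENR lists. Others ranked highest over the AHR KO d4 ENR lists, but only among regions called in both of these and no WT d4 ENR library. Their absence in WT d4 ENR is thus set by the choice. The highest-ranked regions that hold an AP-1 match follow. All sequences are the plus strand of GRCm38, each named by the protein-coding gene with the nearest start site. Capitals mark matches to TEAD (ACATTCC or GCATTCC), AP-1 (TGACTCA or TGAGTCA), ETS (CCGGAAGT), AHR:ARNT (TNGCGTG), HNF4 (CAAAGTCCA or CAAAGTTCA) and CDX2 (GCAATAAA, GTAATAAA, GCCATAAA or GTCATAAA) on either strand. The Ywhaq window, chr12:22030624-22030923, is intergenic and 613 kb from the Ywhaq start. The Vps72 window, chr3:95109220-95109519, is intergenic and 1.65 kb from the start. The Gm10330 window, chr12:23800500-23800799, is in the promoter of a gene that is not protein-coding. The Ntsr2 window, chr12:16635335-16635634, is intergenic, 17.9 kb from the start. The Tomm20l window, chr12:71113988-71114287, and the Trappc12 window, chr12:28694432-28694731, are intronic. The Fam180a window, chr6:35323228-35323527, and the Prkar2b window, chr12:32057365-32057664, are intronic too, and the Dsp window, chr13:38130274-38130573, is intergenic.
Ywhaq: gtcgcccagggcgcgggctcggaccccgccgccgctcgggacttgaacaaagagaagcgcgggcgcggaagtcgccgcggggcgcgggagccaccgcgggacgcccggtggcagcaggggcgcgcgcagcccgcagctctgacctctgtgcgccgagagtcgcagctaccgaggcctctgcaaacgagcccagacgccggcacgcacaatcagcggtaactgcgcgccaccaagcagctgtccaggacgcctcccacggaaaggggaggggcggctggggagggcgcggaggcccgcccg
Vps72: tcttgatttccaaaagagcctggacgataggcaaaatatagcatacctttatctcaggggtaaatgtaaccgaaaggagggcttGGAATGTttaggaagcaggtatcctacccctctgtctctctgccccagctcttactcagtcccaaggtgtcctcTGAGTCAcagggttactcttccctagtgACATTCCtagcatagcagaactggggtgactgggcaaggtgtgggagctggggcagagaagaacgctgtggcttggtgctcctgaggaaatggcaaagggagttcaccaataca
Gm10330: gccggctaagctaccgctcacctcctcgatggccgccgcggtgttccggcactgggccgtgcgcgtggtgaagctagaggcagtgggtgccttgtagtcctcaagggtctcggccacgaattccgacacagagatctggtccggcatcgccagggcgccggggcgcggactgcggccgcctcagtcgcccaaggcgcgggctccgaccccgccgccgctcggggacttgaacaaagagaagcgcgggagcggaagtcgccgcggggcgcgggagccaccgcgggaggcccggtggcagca
Ntsr2: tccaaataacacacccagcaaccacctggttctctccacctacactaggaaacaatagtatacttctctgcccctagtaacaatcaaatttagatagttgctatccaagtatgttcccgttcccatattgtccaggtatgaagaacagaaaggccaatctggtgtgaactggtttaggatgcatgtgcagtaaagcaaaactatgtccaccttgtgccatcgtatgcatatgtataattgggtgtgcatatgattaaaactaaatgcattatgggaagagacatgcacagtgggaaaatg
Tomm20l: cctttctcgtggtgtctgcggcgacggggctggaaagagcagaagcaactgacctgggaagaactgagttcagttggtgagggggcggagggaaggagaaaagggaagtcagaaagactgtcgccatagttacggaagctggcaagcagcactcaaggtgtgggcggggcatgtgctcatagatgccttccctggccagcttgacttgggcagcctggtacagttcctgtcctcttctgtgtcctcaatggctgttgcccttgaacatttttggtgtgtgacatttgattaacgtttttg
Trappc12: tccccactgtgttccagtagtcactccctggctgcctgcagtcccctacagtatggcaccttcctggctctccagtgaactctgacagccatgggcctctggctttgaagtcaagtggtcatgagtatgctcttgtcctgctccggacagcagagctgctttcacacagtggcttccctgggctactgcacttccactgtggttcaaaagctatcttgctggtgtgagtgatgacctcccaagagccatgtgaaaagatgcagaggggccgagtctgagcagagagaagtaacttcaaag
Fam180a: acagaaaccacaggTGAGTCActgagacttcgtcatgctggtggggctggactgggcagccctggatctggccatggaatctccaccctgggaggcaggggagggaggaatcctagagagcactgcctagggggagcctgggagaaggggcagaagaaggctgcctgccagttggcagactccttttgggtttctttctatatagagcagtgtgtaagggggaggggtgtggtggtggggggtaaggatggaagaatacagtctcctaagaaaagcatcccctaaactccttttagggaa
Prkar2b: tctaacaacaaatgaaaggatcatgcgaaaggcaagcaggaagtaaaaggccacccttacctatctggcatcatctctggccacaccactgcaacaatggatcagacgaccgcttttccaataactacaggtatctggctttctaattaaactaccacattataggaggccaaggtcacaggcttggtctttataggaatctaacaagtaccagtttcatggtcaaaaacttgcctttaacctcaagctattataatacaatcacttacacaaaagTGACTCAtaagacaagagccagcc
Dsp: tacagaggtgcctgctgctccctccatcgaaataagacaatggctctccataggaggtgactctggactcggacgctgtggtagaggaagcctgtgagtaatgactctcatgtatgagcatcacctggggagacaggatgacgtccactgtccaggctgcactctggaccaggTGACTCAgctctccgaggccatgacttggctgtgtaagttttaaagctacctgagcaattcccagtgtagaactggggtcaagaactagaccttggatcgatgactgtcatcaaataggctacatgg
The Vps72 window holds 2 TEAD matches and 1 AP-1 match, and the Fam180a, Prkar2b and Dsp windows hold 1 AP-1 match each. The other 5 windows hold no match to these motifs. The Ywhaq and Gm10330 windows share an identical run of 37 bases, and 64.3% and 88.5% of their 32-base words occur more than once in the genome.

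The AHR KO-only regions were short and weak. Their median width was 554 bp (range 272 to 3782), against 1181 bp for the 52254 regions called in all 5 WENR libraries. Ranked by the −log10 q of the peak caller within each list, the median region lay at percentile 14.2, 15.5 and 21.2 of AHR KO replicates 1, 2 and 3, whereas the median shared region lay at 59.5, 58.5 and 59.8. The median pileup, the fragments stacked on a peak, was 4.57, 4.75 and 5.18 per 10000000 fragments of the library, the scale of every pileup given here, against 14.1, 14.4 and 14.6 for shared regions. Only 5 of the 1010 regions were at percentile 50 or above in all 3 AHR KO lists, and 138 (13.7%) were at percentile 25 or above in all 3. The WT-only regions were as low in their own lists, with medians of 11.0 and 11.1.

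On either side of the rule the peaks graded into each other. The 2533 regions called in all 3 AHR KO libraries and 1 WT library, 1 call short of the rule, had median percentiles of 18, 19.2 and 23.3. The 2266 regions called in 2 AHR KO libraries and no WT library had medians of 11.1, 9.77 and 13.6 in the libraries that called them. The AHR KO WENR lists held 63226 to 65308 peaks and the WT WENR lists 61485 to 63470, from 41686181 to 49126792 and 47429634 to 47857748 fragments. When all 10 lists were shortened to the 33433 peaks of the shortest one, 409 regions met the rule, but only 6 of them (1.47% of the 409, 0.594% of the 1010) overlapped an AHR KO-only region. The set described here thus consists mostly of peaks from the lower part of the lists. Leaving out 1 WENR library removes a condition of the rule, so a larger set was fixed in advance and only its size is informative. The rule was met by 2053 regions without AHR KO replicate 1 and 1795 without AHR KO replicate 2. It was met by 1787 without WT replicate 1 and 2766 without WT replicate 2.

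**Figure D1:**
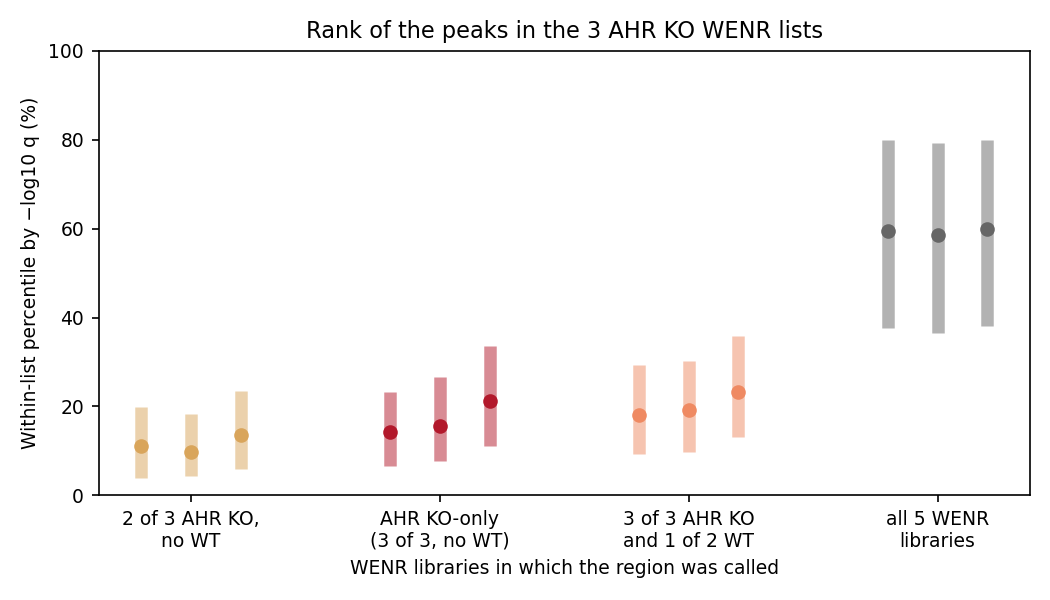
Within-list percentile by −log10 q (vertical axis, %) of regions in the 3 AHR KO WENR lists, grouped by the WENR libraries in which they were called. Points are medians and bars span the middle 50% of regions, with AHR KO replicates 1, 2 and 3 from left to right. AHR KO-only regions have medians of 14.2 to 21.2, between the groups 1 call away and far below regions called in all 5 libraries.

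The leading regions did not fall to 1 gene family. Of the 10 highest-ranked, those of Ywhaq, Gm10330, Ntsr2, Prkar2b and Tomm20l lay on chromosome 12, which carries Ahr. Those of Ywhaq, Gm10330 and Prkar2b were within 15 Mb of Ahr. The region with the highest lowest percentile over the 3 lists, 69.8, lay 613 kb from Ywhaq, which encodes a 14-3-3 adaptor protein. Its pileup was 12.4, 18.8 and 18.9 in AHR KO WENR and 11.3 and 12.7 in AHR KO d4 ENR, and it had no peak in any WT library. The region 20.4 kb from Gm10330, a predicted gene, showed the same pattern with 9.79, 14.3 and 11.4 in WENR and 13.2 and 11.5 in d4 ENR. Both lie in repeated sequence of chromosome 12, with median word copy numbers of 2 and 6, so that reads from near-identical copies may be misplaced and these calls are uncertain.

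The region beside Vps72, a histone chaperone of chromatin remodelling complexes, reached pileups of 38.4, 40.0 and 46.7, the highest of the leading regions, but only 2.89-fold enrichment over its local background in AHR KO replicate 1, 1198 bp from the nearest WT peak. The region beside Ap3d1, a subunit of the AP-3 adaptor complex of vesicle traffic, had 31.9, 30.8 and 28.0, and 2.47-fold enrichment in replicate 1, with a WT WENR peak 1571 bp away and a d4 ENR peak of 12.5 in WT replicate 2 alone. Both thus combined a high pileup with a high local background, close to peaks called in WT. In contrast, regions near Ntsr2, a neurotensin receptor gene, and in Fam180a were 15319 and 19519 bp from any WT WENR peak. The Ntsr2 region had pileups of 8.12, 10.6 and 13.8, and the Fam180a region 8.34, 8.25 and 7.90, and neither had a peak in d4 ENR.

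Among the other leading regions, the one in Prkar2b, a regulatory subunit of protein kinase A, had pileups of 16.2, 16.5 and 21.9 in AHR KO WENR and 4.83 in AHR KO d4 ENR replicate 2 alone. The region in Tomm20l, a homologue of a mitochondrial import receptor, had 9.49, 8.25 and 8.49 in WENR and 6.39 and 6.53 in AHR KO d4 ENR. Nav3, a gene of a microtubule-binding protein, held a region with 7.64, 9.17 and 10.3 and no d4 ENR peak. The region 20.9 kb from Dsp, which encodes the desmosomal protein desmoplakin, had 7.45, 7.74 and 7.30 in WENR and a single d4 ENR peak of 3.83, in WT replicate 3.

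**Figure D2:**
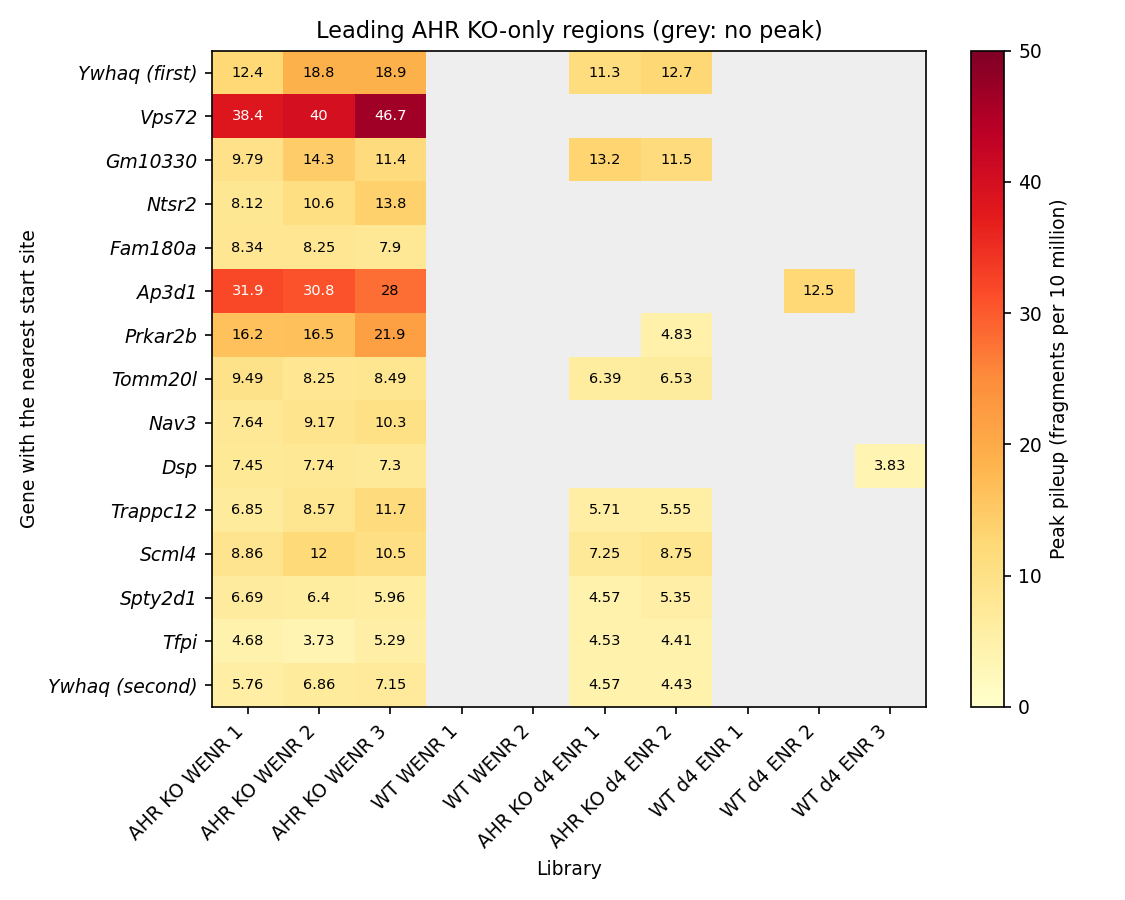
Peak pileup in fragments per 10000000 (colour and printed value) of the highest-ranked AHR KO-only regions in each of the 10 libraries (columns), labelled by the gene with the nearest start site. Grey cells had no peak. The absence in both WT WENR libraries is set by the rule. The Gm10330, Tomm20l, Trappc12, Scml4, Spty2d1, Tfpi and both Ywhaq regions had peaks in both AHR KO and in no WT d4 ENR library. They are shown because they rank highest among regions with that d4 ENR pattern, so it is set by their choice.

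Inside Ahr itself, the deleted gene, lay 3 AHR KO-only regions. The gene is on the minus strand of chromosome 12, from 35497974 to 35535038. The intronic region from 35522914 to 35524762 had pileups of 8.96, 11.7 and 15.9 in AHR KO WENR and of 4.60 and 4.26 in AHR KO d4 ENR, with no peak in any of the 5 WT libraries. A second intronic region, from 35520470 to 35521652, had 8.67, 13.9 and 23.6 in WENR and 3.80 in AHR KO d4 ENR replicate 2. An exonic region, from 35503716 to 35504437, had 3.47, 3.77 and 5.12 and was not called in d4 ENR. The Ahr promoter, from 35534094 to 35535580, was called in all 10 libraries, with 68.7 to 78.5 in AHR KO and 81.0 and 84.4 in WT WENR. A promoter peak does not report on the deletion, and no read counts over the floxed exon were used here.

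The neighbourhood of Ahr was rich in AHR KO-only regions. Within 15 Mb of the gene, 27 of 549 WENR regions (4.92%) were AHR KO-only, against 1.31% of the 75036 elsewhere, and 14 (2.55%) were WT-only, against 0.848% elsewhere. Both kinds of genotype-specific region were thus more frequent there, and 7 of the 27 (25.9%) lay in repeated sequence, against 33 of 983 (3.36%) elsewhere. The segment held 2.67% of the AHR KO-only regions, and chromosome 12 as a whole held 62 (6.14%), against 4.10% of WENR regions. On the other chromosomes the share of WENR regions that were AHR KO-only ran from 0.788% on chromosome 19 to 1.79% on chromosome 14, apart from none of 8 on Y.

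Most AHR KO-only regions were distal. By their midpoint, 515 (51.0%) were in introns, 368 (36.4%) intergenic, 68 (6.73%) in promoters, taken as 1 kb upstream to 100 bp downstream of a start site, and 59 (5.84%) in exons. Regions called in all 5 WENR libraries were in promoters in 21% of cases, whereas WT-only regions, at 5.54%, were close to the AHR KO-only ones. The median distance to the nearest protein-coding start was 20.9 kb, against 17.2 kb for WT-only and 9.33 kb for shared regions, and 28.6% were more than 50 kb away. The nearest WT WENR peak was a median of 7.58 kb away, and only 15 regions (1.49%) had one within 1 kb. The GC content of the central 300 bp had a median of 46.0%, against 45.7% in WT-only and 49.0% in shared regions.

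The 1010 regions had 912 different nearest genes, of which 833 were nearest to 1 region, 64 to 2 and 15 to 3 or more. The promoters of 712 of these genes (78.1%) had a peak in all 5 WENR libraries, close to the share for the nearest genes of all WENR regions (78.2%). For WT-only regions it was 79.9%, so this share did not set the AHR KO-only regions apart. The most regions fell to Snx13, a sorting nexin gene next to Ahr, with 5 AHR KO-only among 25 WENR regions. All 5 were from 8.16 to 197 kb downstream of a Snx13 start, with pileups in AHR KO WENR from 3.20 to 9.87, and 2 of the 5 were called in d4 ENR, each in AHR KO replicate 2 alone.

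Dynlt1b, a dynein light chain gene on chromosome 17, followed with 4 of 9 regions. All 4 lay in repeated sequence, with 64.3% to 88.1% of words repeated. Pak3, a p21-activated kinase gene on the X chromosome, had 4 of 6 regions, all within the gene or at its start, with pileups from 3.35 to 5.57. Of the 4, 2 were at or near a promoter, 0.345 and 0.052 kb from a start, and 1 of the 4 was called in d4 ENR, in both AHR KO libraries at 3.99 and 4.16. The nearest WT WENR peaks were 16088 to 90157 bp away from them.

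Prkar2b, 3 of 8 regions, and Gm10330, 3 of 8, are within 15 Mb of Ahr. Snx9, a sorting nexin gene of endocytosis, had 3 of 17 regions, with pileups from 5.54 to 9.53 and 1 d4 ENR peak, of 3.77 in WT replicate 3. Ets2, a transcription factor of the ETS family, had 3 of 29 regions, against 24 that were called in all 5 WENR libraries. One of the 3, 110 kb downstream of its start, reached 14.2, 14.7 and 24.9, and none of the 3 was called in d4 ENR. Cyyr1, which encodes a small membrane protein, had 3 of 14 regions, with up to 12.5 in AHR KO replicate 3 and none called in d4 ENR.

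Among gene groups, kinases and factors of the Hippo pathway, which restrains YAP and TAZ, had 6 AHR KO-only regions. Of 176 WENR regions nearest to these 18 genes, 6 (3.41%) were AHR KO-only and none was WT-only, beside the 1.34% of all WENR regions. An intronic region of Tead4, a TEAD transcription factor, had 12.6, 14.1 and 14.5 in the 3 AHR KO WENR libraries and no d4 ENR peak. Tead1 held an intronic region with 5.16, 4.38 and 3.90, which was also called in AHR KO d4 ENR replicate 2 at 3.84, and an exonic one with 3.93, 4.41 and 7.35. Another lay 97.6 kb from Vgll3, a TEAD cofactor, with 6.15, 5.68 and 6.46 in AHR KO WENR and 3.54 in WT d4 ENR replicate 2, its only d4 ENR peak. Of the 256 regions nearest to the 25 YAP/TEAD target genes, 2 (0.781%) were AHR KO-only. One was in Dock5, a regulator of Rac, with 3.31, 3.64 and 4.72. The other lay 134 kb from Tgfb2, a TGF-beta ligand, with 3.16, 4.48 and 4.77.

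The fetal-like and regeneration genes had 4 of 159 regions (2.52%). Among them, a region lay 97.9 kb from Anxa5, which encodes an annexin, with 4.53, 4.04 and 5.35. Wnt target and stem cell genes had 7 of 439 (1.59%). Of these, 3 lay 125 to 473 kb from Myc, the proto-oncogene, and the farthest of them had 6.88, 8.27 and 9.95. Ephb2, a crypt receptor that sorts cells along the crypt, had an intronic region with 28.5, 30.2 and 31.5 in WENR and 10.8 in WT d4 ENR replicate 3, at a lowest WENR percentile of 11.4. Rnf43, a Wnt receptor ubiquitin ligase, had 6.23, 6.26 and 6.56 and a d4 ENR peak of 3.82 in AHR KO replicate 2 alone, and Slc12a2, a chloride cotransporter of crypt cells, had 3.52, 3.24 and 3.36.

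The TGF-beta and BMP list had 6 of 331 (1.81%), none of them within 50 kb of a start. They lay 77 to 627 kb from the nearest starts, those of Bmp2 and Inhba, both ligands, and Id2, a BMP-induced inhibitor of bHLH factors. The higher of 2 Id2 regions had 6.16, 6.12 and 6.60 in AHR KO WENR, 7.93 and 9.23 in AHR KO d4 ENR and 3.94 in WT d4 ENR replicate 3, and it lies within 15 Mb of Ahr. Genes of rare secretory cells had few WENR regions. Enteroendocrine genes had 4 of 71 (5.63%), with pileups from 3.74 to 5.51 and no d4 ENR peak. They lay 443 kb from Isl1, a transcription factor, and 30 kb from Chga, a granule protein. The others were 17.1 kb from Tph1, the enzyme of serotonin synthesis, and 81.4 kb from Tac1, a neuropeptide precursor. Tuft cell genes had 2 of 43 (4.65%), near Ptgs1, a cyclooxygenase, and in the promoter of Pou2f3, the tuft cell master regulator, with 3.38, 4.22 and 4.04 and a single d4 ENR peak of 3.27, in WT replicate 2.

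The remaining lists held few or none. Intestinal identity factors had 1 of 307 (0.326%), 104 kb from Klf5, and integrin, laminin and collagen genes 1 of 210 (0.476%), in Lama3. The AP-1 factor list had 2 of 114 (1.75%), 98.5 kb from Maf, related to AP-1, and 7.55 kb from Mafk. The Mafk region had pileups of 3.64 and 4.23 in AHR KO d4 ENR. Ahr was the sole gene of the AHR pathway list with AHR KO-only regions, 3 of 91 (3.30%). No AHR KO-only region was nearest to an absorptive colonocyte gene (0 of 120 regions), a goblet or secretory gene (0 of 68), an epithelial marker (0 of 96) or a marker of fibroblasts, immune cells or endothelium (0 of 69). These counts are small, with at most 7 regions a list, and a nearest gene is a position, not a known target.

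The promoters of all 9 epithelial markers, among them Epcam, Cdh1 and Vil1, had a peak in every library. Of 17 markers of other cells, 5 to 6 promoters had a peak in WENR and 2 in d4 ENR libraries, Col1a1 and Pdgfra in all 10, and 11, among them Ptprc, Cd3e, Pecam1 and Col3a1, in none.

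The AP-1 motif was the most frequent of the 6 in the AHR KO-only regions. A match lay in the central 300 bp of 264 regions (26.1%, 95% Wilson interval 23.5% to 28.9%), against 12.3% of WT-only, 15.2% of shared and 14.9% of all 85680 regions. The 2533 regions with 1 WT call lay between, at 22.1%. With lists of equal length, 32% of the 409 regions that met the rule held a match, against 14.3% of the 524 WT-only and 15% of all regions, although few regions were in common with the 1010. The AP-1 share was thus higher in regions that met the rule than in WT-only and in all regions, with full and with shortened lists. Shortening also drops WT peaks below the cut, so this does not compare strong with weak AHR KO-only peaks.

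CDX2 matches ran the other way, with 70 AHR KO-only regions (6.93%, interval 5.52% to 8.67%) against 14.2% of WT-only and 7.82% of all regions, and with lists of equal length 6.60% against 13.2% of WT-only regions. The TEAD motif was found in 127 regions (12.6%, interval 10.7% to 14.8%), beside 11.5% of WT-only and 9.88% of all regions. The AHR:ARNT motif was in 34 (3.37%, interval 2.42% to 4.67%), beside 3.72% of all regions, so no enrichment of the letters was detectable at this number. ETS matches were in 4 (0.396%) against 1.02% of all regions, and HNF4 matches in 26 (2.57%) against 2.15%. The intervals cover counting error between regions only. The groups were defined by calls of 5 libraries, so these shares are descriptions of the groups, and a match is not a bound site.

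**Figure D3:**
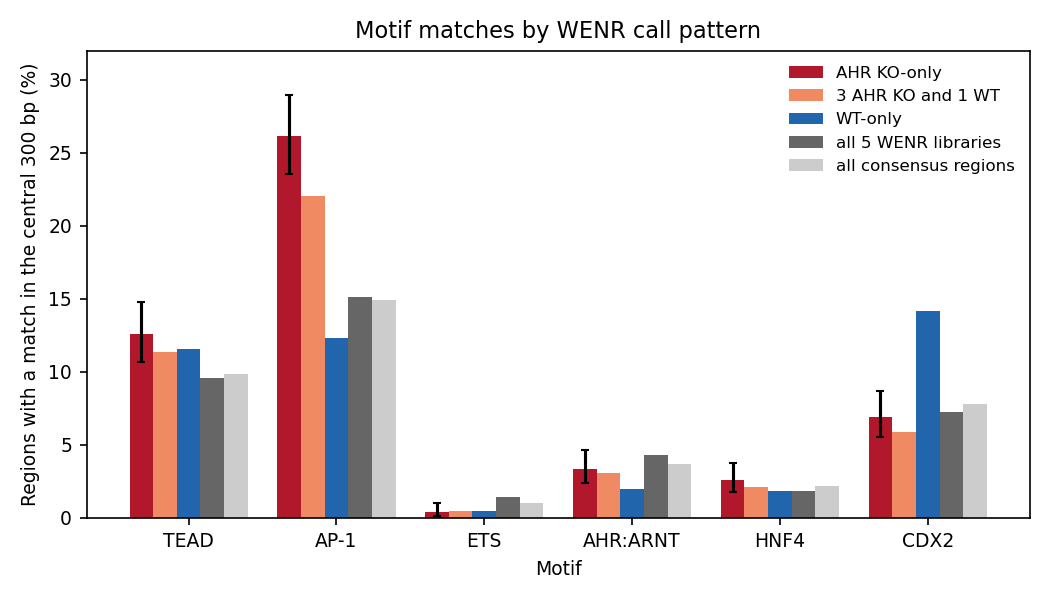
Share of regions (vertical axis, %) with at least 1 match to each of 6 motifs in the central 300 bp, by the WENR libraries in which the regions were called. Bars start at 0 and the lines on the AHR KO-only bars are 95% Wilson intervals. AP-1 is found in 26.1% of AHR KO-only, 12.3% of WT-only and 14.9% of all regions. CDX2 is found in 6.93%, 14.2% and 7.82% of them.

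After 4 days in ENR most AHR KO-only regions were no longer called in either genotype. The d4 ENR libraries also had less signal, with 14.1% to 44.2% of coverage in peaks, against 63.0% to 68.6% in WENR. They had 30354729 to 36307860 fragments, against 41686181 to 49126792. The part of these differences between media in the absent calls was not tested. In d4 ENR, 682 of the 1010 (67.5%) had no peak in any library, against 25.6% of the 75585 WENR regions, and 8 (0.792%) had a peak in all 5, against 38.3%. The groups most like them were closer. No d4 ENR peak was found in 55.8% of regions with 1 WT call and 45.4% of WT-only regions. A peak in all 5 was found in 1.89% and 6.31% of these groups. Only 38 (3.76%) had peaks in both AHR KO and in no WT d4 ENR library, beside 2.63% of WENR regions and 3.71% of those with 1 WT call. A further 104 (10.3%) were called in 1 AHR KO and no WT library, beside 6.05% of WENR regions. Another 54 (5.35%) were called in 1 WT and no AHR KO library, beside 2.93% of WENR regions. In the opposite direction, 4 (0.396%) were called in 2 WT and neither AHR KO library, beside 0.568% of WENR regions, and no region was called in every WT but no AHR KO library. The regions that stayed AHR KO-only in both media were thus a small part of the set. Their number rose from 38 to 120 without AHR KO d4 ENR replicate 1, to 60 without AHR KO d4 ENR replicate 2 and to 58 without WT d4 ENR replicate 3. With fewer libraries this pattern is easier to meet, so the direction of these changes was fixed in advance.

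**Figure D4:**
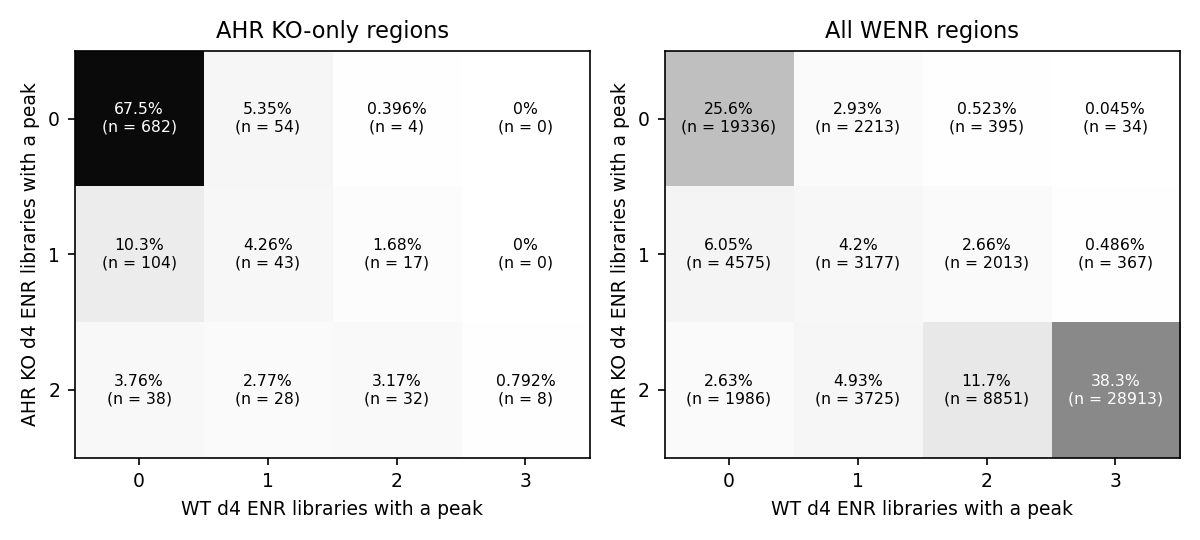
Number and percent of regions by how many of the 2 AHR KO (rows) and 3 WT (columns) d4 ENR libraries had a peak in them, for the 1010 AHR KO-only regions (left) and the 75585 WENR regions (right). Of the AHR KO-only regions 67.5% had none, and 3.76% had both AHR KO and no WT peak.

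Per library, 138 (13.7%) and 238 (23.6%) of the regions were called in AHR KO d4 ENR replicates 1 and 2, and 19 (1.88%), 86 (8.51%) and 150 (14.9%) in WT d4 ENR replicates 1, 2 and 3. The WT library with the most calls lay above the AHR KO library with the fewest, so the genotypes overlapped. The mean was 18.6% ± 7.0 (SD, n = 2) in AHR KO and 8.42% ± 6.49 (SD, n = 3) in WT, a difference of 10.2 percentage points with an exact permutation p of 0.4. Without AHR KO replicate 2 the difference was 5.25 points. With 2 against 3 libraries the smallest 2-sided p of the exact permutation test is 0.2, so that test cannot pass a threshold of 0.05. Of all WENR regions, 59.7% and 68.8% were called in the AHR KO and 40.3%, 55.3% and 62.5% in the WT libraries, in the same order. The d4 ENR lists held 49339 and 58359 peaks in AHR KO and 33433, 47898 and 54768 in WT, with 33.8% and 44.2% of coverage in peaks in AHR KO and 14.1%, 24.4% and 30.9% in WT. The part of list length and of coverage in peaks in the difference was not tested. The AHR KO-only regions called in AHR KO d4 ENR had median percentiles of 17.3 and 21.4 in those lists, so shortening the d4 ENR lists to 33433 peaks each left 933 regions with no d4 ENR peak in any library, a difference of 0.627 percentage points and 7 regions that stayed AHR KO-only.

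Peaks of AHR KO d4 ENR covered 62.7 and 99.6 kb of the AHR KO-only regions, and those of WT 7.77, 25.7 and 52.9 kb, with no overlap and a difference of 52.4 kb in the means. The exact permutation p was 0.2, the smallest possible. The genotypes were apart in the same way over all WENR regions, of which peaks covered 45033 and 48216 kb in AHR KO and 25365, 31052 and 39201 kb in WT d4 ENR. For the AHR KO-only regions the difference was 6.33 kb, with an exact permutation p of 0.4, with d4 ENR lists of equal length, and 33.9 kb without AHR KO replicate 2. Set against WT-only regions, of which 28.0% and 38.6% were called in AHR KO and 9.69%, 28.0% and 40.9% in WT d4 ENR, the AHR KO-only regions were called less often in each of the 5 libraries. The difference from WT-only regions was -14.3 and -15.1 points in AHR KO and -7.81, -19.5 and -26.1 points in WT, and the genotypes did not separate (AHR KO minus WT, 3.10 points, exact permutation p = 0.8). Set against regions with 1 WT call, it was -4.38 and -10.3 points in AHR KO and -1.59, -4.95 and -6.47 points in WT (AHR KO minus WT, -3.03 points, p = 0.6, exact permutation test). So in every d4 ENR library the AHR KO-only regions were called less often than both groups.

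**Figure D5:**
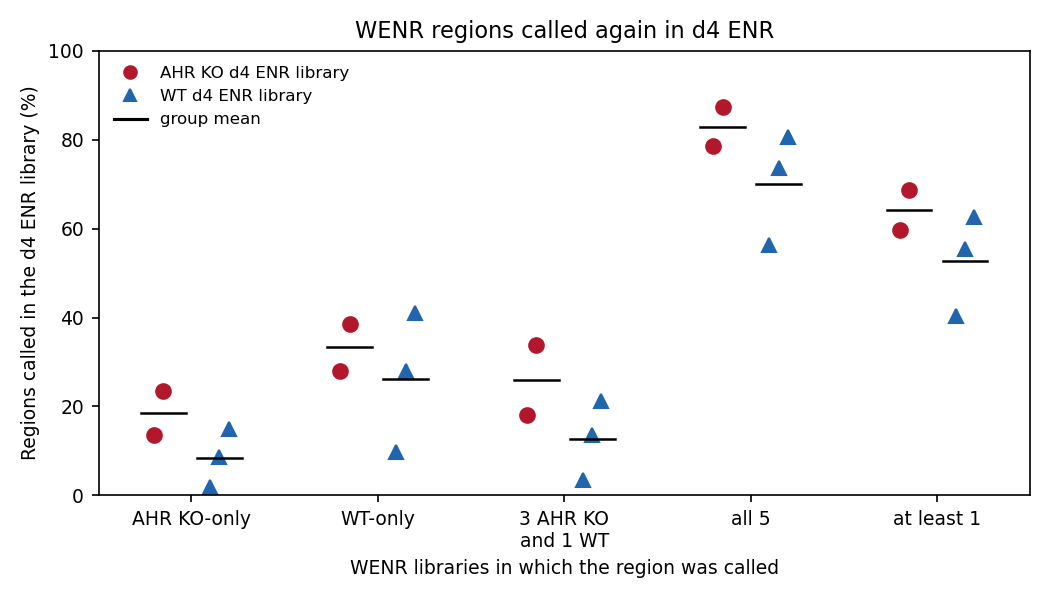
Share of regions called in each d4 ENR library (vertical axis, %), for regions grouped by their WENR calls. Circles are the 2 AHR KO and triangles the 3 WT libraries, and lines are group means. AHR KO-only regions were called in 13.7% and 23.6% of cases in AHR KO and in 1.88% to 14.9% in WT, below every other group in each library.

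Strong and weak WENR regions alike were mostly not called in d4 ENR. When the regions were divided into 4 groups by their lowest AHR KO WENR percentile, 63.6% of the 253 strongest and 74.3% of the 253 weakest had no d4 ENR peak. Among the AHR KO-only regions, the AP-1 motif was more frequent in those without a d4 ENR peak, and the HNF4 motif in the others. AP-1 matches were in 29.6% of the 682 regions with no d4 ENR peak and in 18.9% of the 328 with at least 1, and in 3 of the 38 that were AHR KO-only in d4 ENR. HNF4 matches were in 1.17% of the regions with no d4 ENR peak and in 5.49% of the others, from only 26 regions with a match. The same split is not given for other WENR regions, so it cannot be called particular to this set.

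Of the 38 regions that were AHR KO-only in both media, 5 lay within 15 Mb of Ahr, where 18.5% of the 27 regions kept this pattern against 3.36% of the 983 elsewhere. One of the 5 was the intronic Ahr region described above. The Gm10330 region and both Ywhaq regions among the 5 lay in repeated sequence, so their calls are uncertain. The share of all WENR regions near Ahr with this d4 ENR pattern is not given here. Among the 38, the highest-ranked in d4 ENR were those of Gm10330 and Ywhaq, in repeated sequence, and of Tomm20l. The next was in Trappc12, a subunit of the TRAPP vesicle tethering complex, with 6.85, 8.57 and 11.7 in AHR KO WENR and 5.71 and 5.55 in AHR KO d4 ENR. Scml4, a Polycomb-related gene on chromosome 10, held a region with 8.86, 12 and 10.5 in WENR and 7.25 and 8.75 in d4 ENR. A region 15.3 kb upstream of Spty2d1, a histone chaperone gene, had 6.69, 6.40 and 5.96 and then 4.57 and 5.35. A region 52.5 kb from Tfpi, an inhibitor of blood coagulation, had 4.68, 3.73 and 5.29 and then 4.53 and 4.41. A second Ywhaq region, 739 kb from the start and with 70.6% of words repeated, had 5.76, 6.86 and 7.15 and then 4.57 and 4.43. Over all 38 the median pileup was 4.89, 5.16 and 5.51 in the AHR KO WENR and 4.13 and 4.33 in the AHR KO d4 ENR libraries.

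In all, 58 regions (5.74%, beside 3.50% of WENR regions) were called in WT but not in AHR KO d4 ENR. Of these 58, 4 had peaks in 2 WT libraries. The first lay 79.1 kb from Ell2, a transcription elongation factor gene, with 5.18, 5.71 and 5.44 in AHR KO WENR. It had 3.53 and 3.58 in WT d4 ENR replicates 2 and 3. The others lay 9.28 kb from Magi2, a scaffold protein gene, in St6galnac6, a sialyltransferase gene, and 43.2 kb from Dact2, a regulator of Wnt and TGF-beta signalling. The WT d4 ENR pileups of the 4 ran from 3.53 to 3.93, none of them in replicate 1, the shortest list.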

How the data were processed

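Omni-ATAC-seq libraries of WT and AHR KO colon organoids in WENR and d4 ENR were grouped by genotype, medium and replicate number as given in the labels. The authors aligned the reads with BWA to GRCm38 within nf-core/atacseq 1.2.1 and called broad peaks per library, without a control, with MACS 2.2.7.1 (q 0.1 broad, 0.05 narrow, background window 10000 bp). For each peak the deposited values are the pileup, a coverage signal in stacked fragments. The deposited fold enrichment is its ratio over local background, and the −log10 of p and q is as deposited. Replicates were not pooled. The read counts of the paper's own test were not used here.

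Peaks sharing at least 1 bp were merged with Python 3.11.15, numpy 2.4.6 and pandas 2.3.3. The value of the most significant peak stands for a region, and pileup was scaled to 10000000 fragments of the library (30354729 to 49126792). Depth, and the share of fragments in open chromatin, limit calls: an absent peak means only that the caller's threshold was not passed. Positions refer to GENCODE M21, in the order promoter, exon, intron, intergenic. Motifs were searched with pysam 0.24.0 in the central 300 bp. Sequence was called repeated where at least 50% of the 32-base words of this window occur more than once on the chromosomes. Intervals are from scipy 1.17.1. Genotypes were compared in d4 ENR by exact permutation of libraries, 2-sided, taking 2 times the smaller tail. The procedure was tested on simulated data.

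The rule, the 15 gene lists and the motifs were chosen with earlier results of these data known. Named are the 10 regions highest by their lowest AHR KO WENR percentile. Also named are the 8 highest in AHR KO d4 ENR among regions that were AHR KO-only in both media. Up to 4 called in at least 2 WT and no AHR KO d4 ENR library were added. The 8 genes nearest to most regions, up to 4 genes a list, and Ahr complete the choice. Some genes that this rule covers are not reported here. The AP-1 sequences were added later. Alternatives were lists of equal length, −log10 q of at least 5, 50% of the region covered, autosomes, no regions near Ahr, each library left out, a replicate block, promoters of 3 kb, windows of 500 bp, a nearest start within 50 kb, and, chosen after seeing the data, no repeated sequence.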

Additional observations from a re-analysis of the deposited data

How the results depend on the processing

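The number of AHR KO-only regions was 409 with all lists of equal length and ran from 1448 to 2766 when 1 WENR library was left out, which loosens the rule. Those called in both AHR KO and no WT d4 ENR library were 15 (3.67%) with all lists of equal length and 18 (2.37%) at a −log10 q of at least 5. They were 7 (0.693%) with d4 ENR lists of equal length and from 38 to 120 without 1 library, at shares from 2.45% to 11.9%. Those called in no d4 ENR library were 232 (56.7%) with all lists of equal length and 643 (84.7%) at a −log10 q of at least 5. They were 933 (92.4%) with d4 ENR lists of equal length. Without 1 library they ran from 687 to 1740, at shares from 58.1% to 75.6%, as the set changed in size. The AHR KO minus WT difference in call share kept its sign in all alternatives and was 2.2 points with all lists of equal length and 6.65 at a −log10 q of at least 5. The difference relative to WT-only regions, 3.10 points, turned to -5.72 at a −log10 q of at least 5, to -2.20 with 50% of the region covered and to -1.05 with the replicate block, and ran from -2.77 to 8.08 without 1 library. That relative to regions with 1 WT call turned to 0.186 with d4 ENR lists of equal length. The cause was not tested. Without repeated sequence 970 regions remained, of which 34 were AHR KO-only in d4 ENR and 665 in no d4 ENR library. Exact permutation p-values ran from 0.2 to 1 over these alternatives. In the paired fit with the replicate block, where p cannot go below 0.5, the difference in call share was 13.4 points. That equals the value without WT d4 ENR replicate 3, which has no AHR KO library of the same number in d4 ENR. Deviations of same-numbered d4 ENR libraries correlated at 0.0813 and 0.0184, so the numbers are not evidence of pairing. Within 50 kb of a start, 4 Hippo regions (0.396% of the 1010, against 0.212% of WENR regions) were left. The fetal-like, TGF-beta and BMP, and intestinal identity lists had none left, beside 0.171%, 0.251% and 0.242% of WENR regions. With 500 bp windows AP-1 was in 33.8% of AHR KO-only and 20.5% of all regions. With promoters of 3 kb on each side 74.9% of AHR KO-only regions were distal, with protein-coding genes alone 91.7%.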
